A study of Medicago truncatula with 160 samples.

Results

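The 100 most abundant nuclear transcripts of Medicago truncatula nodules were taken from a table of 56121 transcripts, of which 49615 were M. truncatula nuclear transcripts, 120 plastid, 193 mitochondrial and 6193 from the rhizobium Sinorhizobium (Ensifer) meliloti. The members were chosen by their level: CPM, the count of a transcript scaled to a library total of 1000000, was computed over the nuclear transcripts alone, and the 100 with the highest median CPM over all 160 libraries were taken. Their levels are therefore given as a description, while host, strain and plant were not used in the choice. The libraries hold RNA from nodules of greenhouse plants of the inbred host lines A17 and DZA, each plant inoculated with 1 of 20 S. meliloti strains, with 4 plants per strain and host, 80 libraries per host and 40 groups in all. The strains were 121, 141, 144B, 176A, 182, 199, 204, 206, 216, 230, 25B, 278, 282, 283, 31, 335, 724B, 746B, 748B and 89. All groups share the tissue and the growing conditions. The study's methods give 1 sequencing lane but describe only DZA plants, so whether the A17 libraries shared that lane was not determined. Reads of both hosts were quantified against the A17 reference, so a lower value in DZA and poorer mapping of DZA reads cannot be told apart.

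A root nodule houses rhizobia inside infected plant cells, where they fix nitrogen in exchange for plant carbon. Fixation needs very little free oxygen, and legumes supply it through leghemoglobins, oxygen-carrying proteins that are among the best-known abundant products of infected cells. Sucrose synthase, which splits the sucrose that arrives from the shoot, and sulfate transporters belong to the supply side of the same exchange. In bulk nodule RNA, fewer cells of a type and less RNA per cell cannot be told apart.

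Nuclear counts ranged from 2069369 to 56508206 per library, and S. meliloti took 3.68 to 96.3% of a library. The lowest median count of a member was 4947, so counting error was small beside the spread between plants. No 2 libraries of a group were alike within sampling noise. The host label fitted the data of every library: 39 transcripts nearly confined to A17 and 4 nearly confined to DZA put 0 libraries on the wrong side. The strain label was checked on 633 S. meliloti transcripts that are on in some strains and off in others, which did not separate 2 pairs of strains, 282 with 283 and 89 with 182. In 4 libraries another strain fitted better than the labelled one, and in 8 libraries, those 4 included, the correlation with the labelled strain was under 0.9. All were kept under their labels, and counts of host and strain calls are also given without these 8 libraries, called doubted below. The A17 library of strain 216 plant 3110 stood apart with the fewest nuclear counts and an S. meliloti share of 96.3%. The labelled tissue was checked on 5 markers of infected nodule cells, of which MtNCR169, MtSymCRK, MtVTL8 and MtDNF1 were above 0 in every library, with medians of 110, 119, 88.6 and 69.6 CPM. MtNAD1, the fifth, had a median of 11.03 CPM and was at 0 in at least 1 library. The p-values below for single members and for the F ratios of strain rest on the spread between plants. Those for the member share between hosts and against the S. meliloti share rest on the spread between strains.

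The members make up a steep ladder. Of the 100, 2 had a median of at least 100000 CPM, 12 of at least 10000 and 39 of at least 1000. The highest was Chr5g0422081 (the IDs are given without their prefix MtrunA17_), which ran from 24810 over a median of 109606 to 310786 CPM in the A17 libraries and from 24676 over 124726 to 321772 CPM in the DZA libraries. Chr5g0422141 followed, with a median of 98207 CPM and a highest value of 390100 CPM in A17 and a median of 113500 and a highest value of 466365 CPM in DZA. In most libraries one of these IDs held the most counts, Chr5g0422141 in 79 and Chr5g0422081 in 69 of them. Chr1g0186761 held the most counts in the other 12, at a median of 48840 CPM over all libraries. The other members above 10000 CPM were, in order, Chr5g0422041 at 30014, Chr5g0427351 at 21648, Chr1g0213751 at 16204, Chr4g0016141 at 15800, Chr0c01g0489101 at 15663, Chr4g0000621 at 14963, Chr5g0422161 at 12352, Chr5g0422291 at 11986 and Chr1g0199111 at 10281 CPM in the median. CPM is not scaled by transcript length, so this order is one of counts and not of transcripts per cell.

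The lower end of the list has no gap. The members ranked 96 to 100 had medians of 418 (Chr6g0463491), 410 (Chr3g0113231), 406 (Chr2g0295871), 405 (Chr5g0422091) and 401 CPM (Chr5g0407791). The 5 just outside the list had 398 (Chr7g0219981), 397 (Chr6g0475251), 396 (Chr3g0118321), 390 (Chr4g0057861) and 389 CPM (Chr1g0146151). Ranking the A17 libraries alone kept 92 of the 100 members and the DZA libraries alone 89, and 81 were in both lists. Within a single library, 33 to 90 of the members were among its own 100 highest transcripts, with a median of 79, and 20 members were so in every library. By their IDs 29 members lie on chromosome 5, 16 on chromosome 4, 14 on chromosome 1, 12 on chromosome 3, 8 each on chromosomes 6 and 7, 7 on chromosome 2 and 3 on chromosome 8, with 3 on the unplaced sequence Chr0c01.

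The files do not pair these IDs with gene names, and 0 of the 100 matched the reference gene table. The study's supplementary lists gave a function for 15 members. Of these, 7 carry the term oxygen carrier activity, the term of the leghemoglobins: Chr1g0148751 (rank 18), Chr5g0435981 (28), Chr5g0435991 (45), Chr1g0197531 (52), Chr5g0417631 (58), Chr5g0435621 (59) and Chr5g0435611 (74). The study chose the list that gave this term from co-expression in the DZA libraries, so how its genes move together there is not independent evidence. The 3 members on the study's list of 84 symbiosis genes were Chr4g0070011, the sucrose synthase MtSUCS1 (rank 22), Chr6g0485191, the sulfate transporter MtSULTR3.5 (rank 80), and Chr1g0157851, unnamed and tied to the amyloplast, the starch-storing plastid (rank 36). The others were Chr1g0160171 (transmembrane transporter activity), Chr4g0035001 (mRNA binding), Chr5g0422281 (nucleic acid phosphodiester bond hydrolysis), Chr3g0094961 (cytochrome c oxidase subunit 3) and Chr3g0094971 (a hypothetical protein).

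A run of 39 nuclear transcripts with IDs from Chr5g0422001 to Chr5g0422391, called the Chr5g0422 run, held 9 members, among them 5 of the 12 highest. The run took 10.6 to 80.5% of the nuclear counts of an A17 library (median 28.3%) and 11.7 to 81.0% of a DZA library (median 33.5%). Single IDs of the run could be at 0 in a library where others of the run were far above their median. Chr5g0422141 was at 0 in 4 libraries and at 1.24e-05 CPM in DZA strain 278 plant 3429, although its median is over 100000 CPM. In the A17 one, strain 199 plant 3388, Chr5g0422261, with a median of 32.9 CPM over all libraries, reached 180052 CPM. In the 3 DZA ones and in strain 278 plant 3429, Chr5g0422021, with a median of 1.41 CPM, reached 39308 to 103020 CPM. The run as a whole held 413274 to 722523 CPM in these 5 libraries, above its median of 314750 CPM. Where transcripts are near-identical, the estimation can divide their shared reads in different ways from library to library. The likeness of these transcripts was not tested, so values of single IDs of the run are given as uncertain, beside their sum. Ribosomal RNA transcripts were part of the quantified reference, and which IDs they carry is not given in the sources used here, so whether the run includes any was not determined. The study's methods describe ribosomal RNA as a part of the reads that differed widely between samples and could be large, so the levels of the run and the share of the members may hold such RNA.

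**Figure D1:**
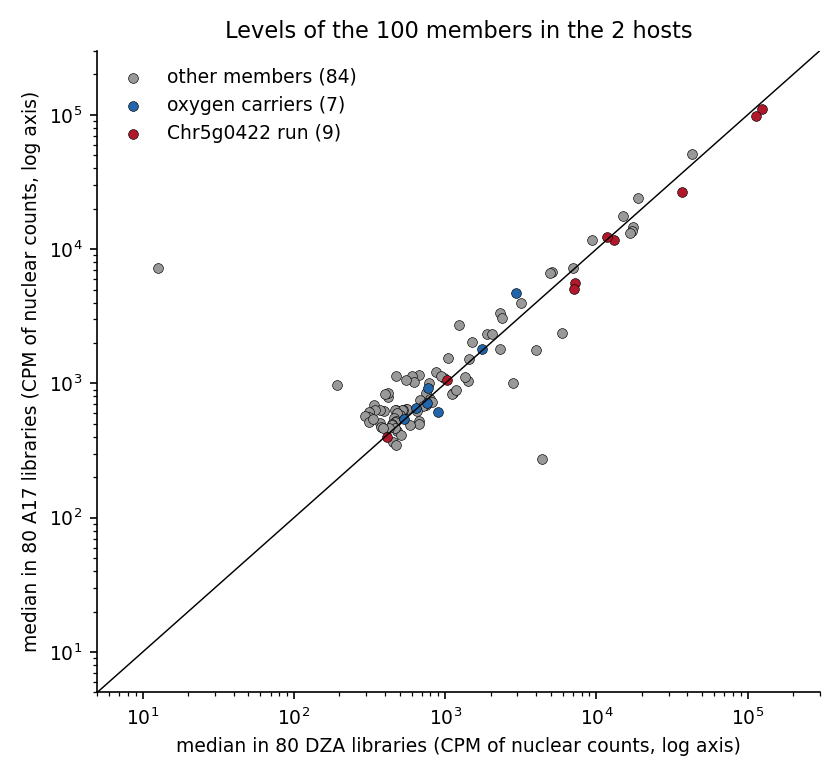
Each point is 1 of the 100 members, placed by its median CPM in the 80 DZA libraries (horizontal) and the 80 A17 libraries (vertical), both on log axes, with the line of equal values. Most members lie close to the line, Chr5g0441681 lies far above it (7250 CPM in A17 and 12.7 CPM in DZA) and Chr5g0439751 far below it (274 and 4357 CPM).

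The share of nuclear counts held by the 100 members together was 58.4% ± 14.4 in A17 (SD, n = 80 libraries, 39.5 to 93.9%, median 55.8%) and 61.1% ± 15.4 in DZA (n = 80, 37.3 to 92.0%, median 58.7%). The 10 highest members alone held 42.9% ± 15.1 in A17 and 45.5% ± 16.3 in DZA. Over the 20 strains, each averaged over its 4 plants, the share was lower in A17 by 2.70 points (SE 1.496) and higher in A17 for only 7 strains. A two-sided permutation of host within strain gave p = 0.0882, so the hosts were not shown to differ. The mean S. meliloti share also differed between the hosts, at 31.4% in A17 and 35.9% in DZA, and its part in this difference was not tested. Without the 8 doubted libraries the difference was -4.09 points (permutation p = 0.0309). Without replicate 1 of each group, a number that only follows the order of the samples, it was -4.59 points (permutation p = 0.0136). Without replicates 2, 3 and 4 in turn it was -2.55, -2.48 and -1.19 points (permutation p = 0.287, 0.241 and 0.617).

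The share varied more between plants of one strain than between strain means. Strain means ran from 50.6% (strain 31) to 68.6% (strain 282) in A17 and from 52.6% (strain 335) to 68.0% (strain 283) in DZA. The pooled SD between the 4 plants of a strain was 15.6 points in A17 and 16.8 points in DZA, about as wide as the whole range of the strain means, 17.96 and 15.3 points. The F ratio of strain was 0.351 in A17 (permutation p = 0.993) and 0.303 in DZA (permutation p = 0.997). Strain means thus lay closer together than in nearly all random assignments of plants to strains. Each strain held plants with a low and plants with a high share. The lowest plant of a strain had 39.5 to 49.1% in A17 and 37.3 to 54.7% in DZA, the highest plant 60.7 to 93.9% and 67.3 to 92.0%, and these ranges did not overlap within a host. The difference between the highest and the lowest plant of one strain was 11.6 to 52.3 points in A17 and 21.2 to 48.3 points in DZA.

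**Figure D2:**
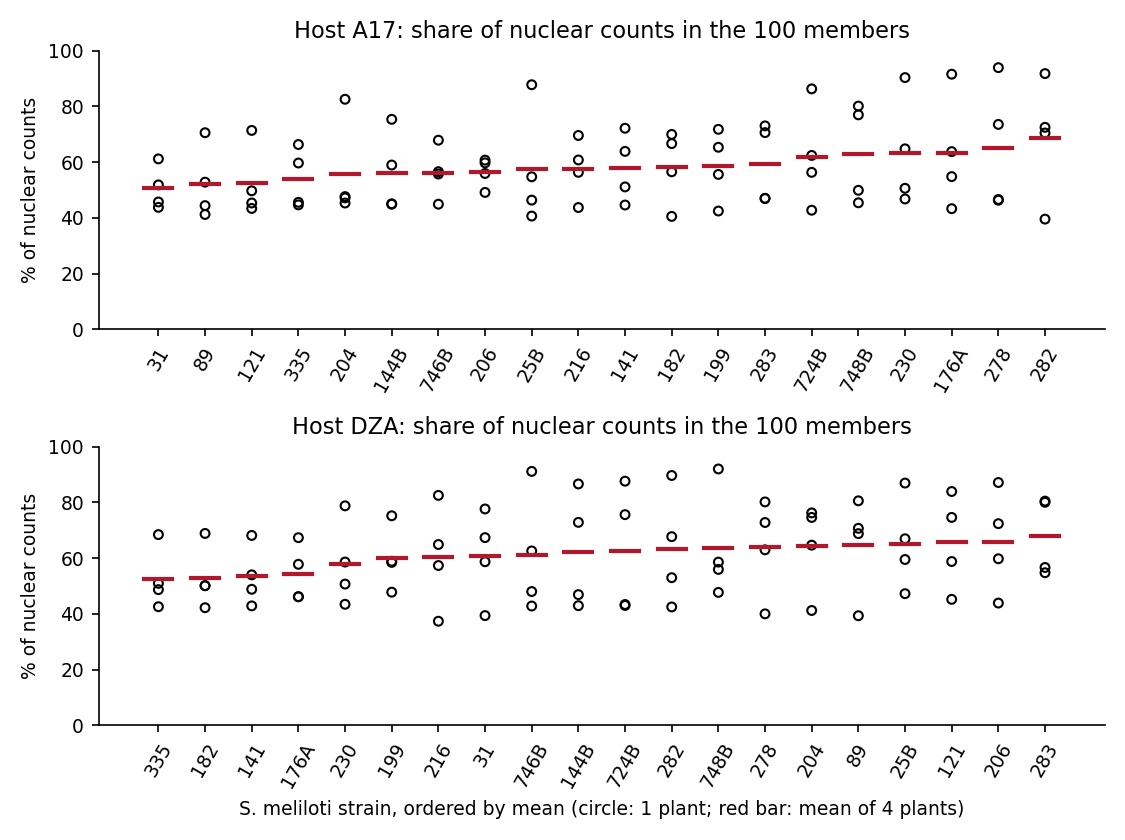
Share of nuclear counts (%) in the 100 members for each S. meliloti strain in A17 (top) and DZA (bottom), with strains ordered by their mean. Circles are single plants and red bars the mean of 4 plants. In every strain the highest plant is at or above 60.7% in A17 and 67.3% in DZA, and the lowest at or below 49.1 and 54.7%.

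The same held for the single members. When the variance of log2(CPM + 1) was divided between host, strain, their interaction and plants, plants within a group took a median of 81.6% over the 100 members, strain 7.05%, the interaction 7.21% and host 2.08%. These are shares of the sum of squares without correction for the number of groups. Random spread between plants alone therefore also gives strain and the interaction a share. The 18945 other nuclear transcripts with a median of at least 1 CPM gave a median of 81.3% for plants, so this division is not particular to the members. The SD between plants of a group was larger in the members, with a median of 1.07 on the log2 scale beside 0.807 for the other transcripts. It was largest in Chr5g0422141 (3.09) and Chr5g0422331 (3.03), both of the run, and in Chr3g0090811 (2.47). It was smallest in Chr5g0441751 (0.563), Chr1g0166831 (0.621) and Chr5g0439751 (0.699).

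The share of the members moved with the amount of S. meliloti RNA in the library. That amount is the part of a library's counts on all S. meliloti transcripts, coding and non-coding. The libraries were made with an mRNA preparation kit. How far this part follows the rhizobia in a nodule, mRNA enrichment or remaining ribosomal RNA was not tested. Over the 20 strain means in DZA, the member share and the S. meliloti share had a Pearson r of 0.580 (permutation p = 0.00745, adjusted over both hosts 0.0139) and a Spearman rho of 0.588 (permutation p = 0.00744, adjusted 0.00989). Without strains 25B and 31, whose S. meliloti shares lay farthest from the median, r was 0.647 over 18 strains. In A17, r was 0.542 (permutation p = 0.0139, adjusted 0.0139) and rho 0.573 (permutation p = 0.00989, adjusted 0.00989). Without strains 121 and 31 this r was 0.347 (permutation p = 0.158), so over strain means the A17 call rests on those strains. Without the 8 doubted libraries it was 0.732 (permutation p = 4e-04). With the 10 highest transcripts removed from members and total alike, r was 0.286 in DZA (permutation p = 0.221) and 0.341 in A17 (permutation p = 0.143), so neither relation passed the test without the top of the list. Across single libraries, as a description, r was 0.822 in the 80 A17 and 0.769 in the 80 DZA libraries, and 0.858 and 0.832 after the strain means were removed. Nuclear counts fell as the S. meliloti share rose (r = -0.904 and -0.911 across libraries), and the part of depth in these relations was not tested.

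The groups of members moved in different directions. In the 20 A17 libraries with the least S. meliloti RNA (5.35 to 15.2% of counts), the members held a median of 45.2% of the nuclear counts and the run 17.3%. In the 20 with the most (43.6 to 96.3%) the members held 72.6% and the run 50.8%. The same steps in DZA went from 43.0 to 78.2% for the members and from 16.5 to 58.2% for the run. The 84 members that are neither in the run nor oxygen carriers changed less, from 26.5 to 24.1% in A17 and from 25.4 to 20.1% in DZA. These are shares of all nuclear counts, and a larger run lowers the share of every other transcript. The 84 were not rescaled to the counts outside the run library by library. Between the low and high libraries, their median share fell proportionally less than the share left outside the run. By these medians they thus made up a larger part of the counts outside the run where S. meliloti RNA was highest, in both hosts. The 7 oxygen carriers went the other way, from 1.53% (1.12 to 1.95%) to 0.359% (0.0226 to 0.990%) in A17 and from 1.55% (1.09 to 2.44%) to 0.298% (0.0619 to 1.15%) in DZA. In A17 the oxygen carrier values of these low and high libraries did not overlap, and in DZA they met at their edges. Relative to the nuclear counts outside the run, the oxygen carriers still went from a median of 18535 to 6139 CPM in A17 and from 18639 to 7156 CPM in DZA. The sum of the 5 infected-cell markers, in CPM of all nuclear counts with the run included, moved in the same direction. Its median went from 728 CPM (441 to 1093) to 123 CPM (15.7 to 497) in A17. In DZA it went from 662 (296 to 1106) to 102 CPM (15.0 to 521). The part of a changed share of infected cells in these values was not tested.

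**Figure D3:**
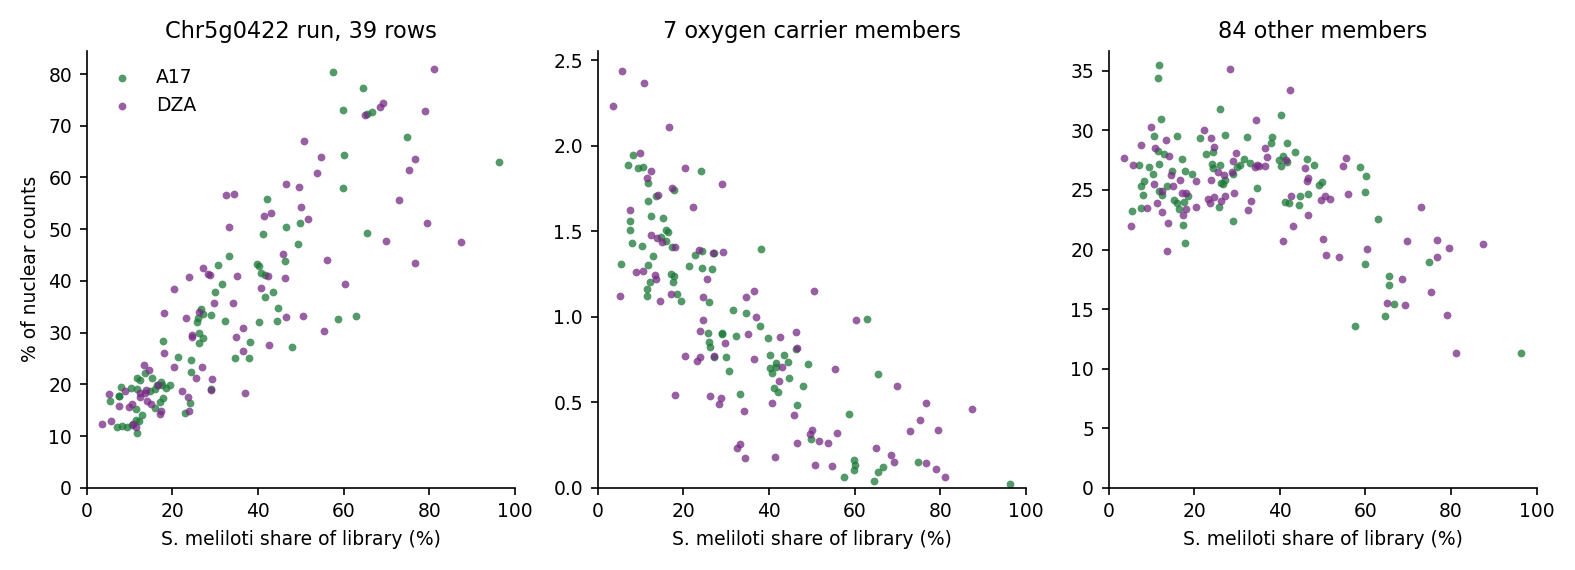
Share of nuclear counts (%) held by the 39 transcripts of the Chr5g0422 run (left), the 7 oxygen carrier members (middle) and the 84 other members (right), against the S. meliloti share of the library (%), with 1 point per library (80 A17, 80 DZA) and a vertical scale of its own in each panel. The run climbs from medians of 17.3 and 16.5% in the 20 libraries with the least S. meliloti RNA (A17 and DZA) to 50.8 and 58.2% in the 20 with the most, the oxygen carriers drop from 1.53 and 1.55% to 0.359 and 0.298%, and the other members go from 26.5 and 25.4% to 24.1 and 20.1%.

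Within host and strain, edgeR's quasi-likelihood test of the slope on the S. meliloti share (Benjamini-Hochberg over 37673 M. truncatula transcripts, adjusted p under 0.05) called 83 of the 100 members, beside 77.7% of all transcripts tested, a like share. Of the members 28 rose, beside 40.2% of all transcripts, and 55 fell, beside 37.6%. Of the 12 highest members 8 rose, 5 of them in the run. Of the 7 outside the run 3 rose, 3 were not called and 1 fell, Chr5g0427351 at -0.21 (SE 0.02) on the log2 scale per 10 points of S. meliloti share. Of those ranked 13 to 100, 20 rose and 54 fell. Rank was used to choose the members, so these counts are a description. The split moved with the scaling, for members and background alike: with DESeq2's size factors 80 members were called, beside 75.5% of all transcripts, of which 43 rose, beside 55.2%, and 37 fell, beside 20.3%. All 28 risers of the TMM scaling rose under both, 37 members fell under both, and Chr3g0094971 changed from a fall to a rise (0.053). All 9 members of the run rose, by 0.27 to 0.83 per 10 points with a median of 0.50, and Chr5g0422301 (0.83, SE 0.04) and Chr5g0422041 (0.78, SE 0.06) rose the most. With limma-voom, which called 78.6% of all transcripts (42.2% rising and 36.4% falling), 6 of the 9 rose and 2, Chr5g0422091 (-0.22) and Chr5g0422331 (-0.51), fell. The largest falls among all members were in Chr3g0108471 (-0.54) and Chr6g0470771 (-0.47), which the sources used here do not name.

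All 7 oxygen carrier members fell with the S. meliloti share, and so did all 9 genes of that list. Their slopes ran from -0.10 (Chr5g0435621, SE 0.02) to -0.35 (Chr1g0197531, SE 0.02) per 10 points, with a median of -0.26 beside 0.01 over all transcripts tested. That list was chosen from co-expression in the DZA libraries, which are part of this test, so the shared direction is not independent evidence. With DESeq2's size factors 6 of the 7 fell, and Chr5g0435621 was at -0.01. Chr1g0148751, the highest of them, had 120 to 9734 CPM in A17 (median 4704) and 219 to 8886 CPM in DZA (median 2932), and fell by 0.26 (SE 0.02) per 10 points. The sucrose synthase MtSUCS1 fell by 0.15 (SE 0.02) and the sulfate transporter MtSULTR3.5 by 0.23 (SE 0.02). Of the 84 symbiosis genes, 70 were called, 8 rising and 62 falling, beside the 77.7, 40.2 and 37.6% of all transcripts. With DESeq2's size factors 59 were called, 16 rising and 43 falling, beside 75.5, 55.2 and 20.3%. The 5 infected-cell markers are themselves among these 84 genes, so their falls are already counted there. Under the TMM scaling MtNCR169 fell by 0.46, MtNAD1 by 0.35, MtSymCRK by 0.31, MtVTL8 by 0.30 and MtDNF1 by 0.10 per 10 points.

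**Figure D4:**
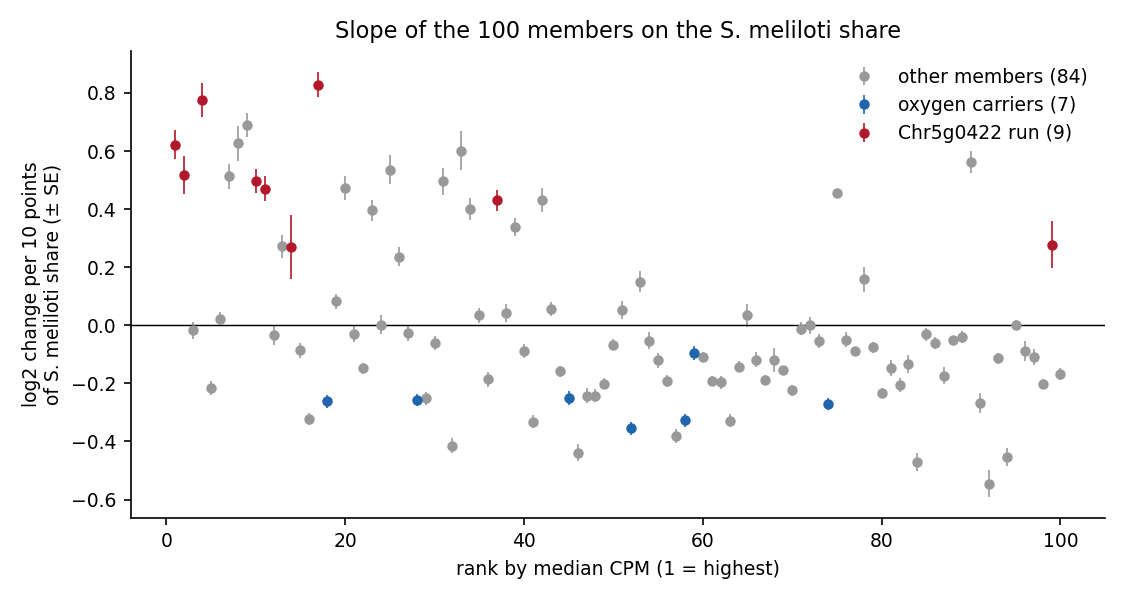
Slope of each of the 100 members on the S. meliloti share (log2 change per 10 points ± SE, edgeR) against its rank by median CPM, with 1 as the highest. All 9 members of the Chr5g0422 run lie above 0 and all 7 oxygen carriers below it, between -0.10 and -0.35.

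Between the hosts, 51 members differed in edgeR's quasi-likelihood test with strain as a factor, beside 58.5% of the 37673 transcripts tested (55 without the 8 doubted libraries, beside 59.9%). Higher in A17 were 32, beside 27.6% of all transcripts, and higher in DZA 19, beside 30.9%. The median log2 difference (A17 minus DZA) was 0.06 over the members and -0.09 over all transcripts. A member low in one host could enter the list through the other. Of the 32 higher in A17, 14 had a DZA median below 401 CPM, the lowest overall median in the list, and of the 19 higher in DZA, 2 had an A17 median below it, so the counts are given as a description. Only 7 of the 51 differed by more than 1 on the log2 scale. Of the 12 highest members, 2 were called and both by little. One was Chr5g0427351, higher in A17 (0.29, SE 0.12), a call that was lost in 5 of 15 alternative analyses. The other was Chr5g0422141 of the run, lower in A17 (-0.29, SE 0.08), a call that was lost or turned in 10 of the 15. Its SD between plants was the largest of all members (3.09), yet its SE was below that of Chr5g0422081 (SD 0.97, SE 0.29). The SE of Chr5g0422141 thus does not reflect its spread between plants, and its call is given as uncertain. With limma-voom or with the S. meliloti share as a covariate, 0 of the 12 were called.

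The ranges of A17 and DZA libraries did not overlap for 2 members, beside 0.57% of 37375 nuclear transcripts. Each entered the list only through the host in which it is high, so these values describe them and are no test. Chr5g0441681 had 1783 to 16478 CPM in the A17 libraries, with a median of 7250, and 2.57 to 87.8 CPM in the DZA libraries, with a median of 12.7 (log2 difference 8.48, SE 0.28). Chr5g0439751 had 36.3 to 558 CPM in A17, with a median of 274, and 1297 to 11173 CPM in DZA, with a median of 4357 (log2 difference -4.29, SE 0.11). This member was also among the steadiest between plants of one group. Neither is named in the sources used here. Also higher in A17 were the annotated members Chr3g0094971, the hypothetical protein (medians of 632 and 344 CPM, log2 difference 0.75, SE 0.05), and Chr3g0094961, the cytochrome c oxidase subunit (849 and 422 CPM, 0.66, SE 0.08). Both overlapped widely between hosts. Cytochrome c oxidase subunit 3 is usually a mitochondrial gene, so a nuclear copy may share its reads with the organelle's, and its value is uncertain. Among those higher in DZA, Chr7g0258841 had the second smallest p, with medians of 1009 CPM in A17 and 2820 CPM in DZA (log2 difference -2.20, SE 0.24).

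The oxygen carriers did not move as one group between the hosts. Chr1g0148751 was higher in A17 (log2 difference 0.58, SE 0.11, edgeR adjusted p = 3.92e-06). Chr5g0435621, with medians of 614 CPM in A17 and 891 CPM in DZA, was higher in DZA (-0.59, SE 0.09, adjusted p = 1.19e-08), as was Chr1g0197531 (-0.43, SE 0.13, adjusted p = 0.00351). The other 4 lay between -0.18 and 0.11 and did not pass the test. With the S. meliloti share as a covariate, 6 of the 7 were called, beside 61.6% of all transcripts, with 1 higher in A17 (beside 28.1%) and 5 higher in DZA (beside 33.5%). MtSUCS1 (0.17, SE 0.09) and MtSULTR3.5 (0.05, SE 0.09) did not pass the test.

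In the DZA libraries 13 members differed between the 20 strains (edgeR's quasi-likelihood F test, adjusted p under 0.05), beside 7.1% of 34224 transcripts. None of the run's 9 members, of the 7 oxygen carriers or of the 12 highest members was among them. Without the 8 doubted libraries 10 were called, beside 6.51%. With 1 plant of each group left out in turn, 4, 9, 5 and 8 members were called, beside 3.72, 4.61, 4.53 and 6.27% of all transcripts, so without replicate 1 and without replicate 3 the members' share was near the background. Chr1g0157851, the amyloplast-related symbiosis gene, ranged from a strain mean of 415 CPM ± 254 (748B, SD, n = 4) to 2092 CPM ± 566 (141, n = 4). Its plants had 57.0, 422, 549 and 633 CPM with 748B and 1340, 1975, 2487 and 2566 CPM with 141. These strains were picked as the ends of the same values, so their lack of overlap is a description and no support. The test over all 20 strains gave an adjusted p of 8.7e-05 (edgeR's F test). MtSUCS1 also passed (adjusted p = 0.00922 in edgeR's F test), but not with the S. meliloti share as a covariate (adjusted p = 0.0612), nor in any analysis that left out 1 plant per group. Chr4g0035001, the mRNA binding gene, was at the edge of the threshold (adjusted p = 0.0471 in edgeR's F test). Chr6g0463491 went from a mean of 117 CPM with 25B, where 1 of the 8 doubted libraries lies, to 1051 CPM with 141. Of the 13, 9 fell with the S. meliloti share and 0 rose under the TMM scaling, beside 55 and 28 of all 100 members and 37.6 and 40.2% of all transcripts, a split that moves with the scaling. With the S. meliloti share as a covariate 9 of the 13 calls held. With it, 18 members were called, beside 8.41% of all transcripts, among them 5 of the 7 oxygen carriers.

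In the A17 libraries edgeR's F test called 0 members for strain, beside 2.01% of 34844 transcripts, with 4 members at an unadjusted p under 0.05. limma-voom also called 0, beside 0.258%, with 1 at an unadjusted p under 0.05. edgeR with DESeq2's size factors called 2, beside 2.32%, and 2 were called without the 8 doubted libraries, beside 2.33%. Whether the strains act differently on the hosts was tested by the host by strain interaction, which called 2 members, beside 1.79% of 37673 transcripts (4 without the 8 doubted libraries, beside 1.95%). That 13 members were called in DZA and 0 in A17 does not by itself show a difference between the hosts, and for the other 98 members the interaction did not pass.

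Both members with an interaction, Chr8g0354121 (edgeR adjusted p = 1.42e-05) and Chr1g0160171, the putative transmembrane transporter (adjusted p = 2.36e-04), also led the strain calls in DZA (adjusted p = 2.07e-07 and 1.35e-06). Chr8g0354121 had 49.6, 69.7, 176 and 289 CPM in the DZA plants of strain 746B and 220, 770, 872 and 2035 CPM in those of strain 199. In A17 the order was the other way, with 464, 530, 693 and 978 CPM for 746B and 53.1, 304, 348 and 631 CPM for 199. Its 4 DZA plants of 746B thus lay below all 4 A17 plants of the same strain, whereas for 199 the hosts overlapped. These strains are the ends of its DZA means, so their plants are given as a description. Chr1g0160171 gave the same picture, with 104, 202, 344 and 465 CPM in DZA and 800, 988, 1006 and 1065 CPM in A17 for 746B. Its DZA plants of strain 199 had 341, 1285, 1374 and 2429 CPM and its A17 plants 201, 566, 581 and 981 CPM. Strain means of Chr8g0354121 ran from 146 to 974 CPM in DZA and from 220 to 666 CPM in A17, and those of Chr1g0160171 from 259 to 1357 and from 350 to 965 CPM. Over the 20 strain means the pair moved together, as a description, with r = 0.973 in DZA and 0.898 in A17. Both were chosen by the same tests and share a nuclear total that varies with the run. Other pairs of members were not compared, so this r is not shown to be particular to the pair. Chr8g0354121 fell with the S. meliloti share (-0.17, SE 0.03) and Chr1g0160171 did not pass that test (-0.05, SE 0.03). The interaction of Chr1g0160171 was lost without replicate 2 (edgeR adjusted p = 0.122).

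**Figure D5:**
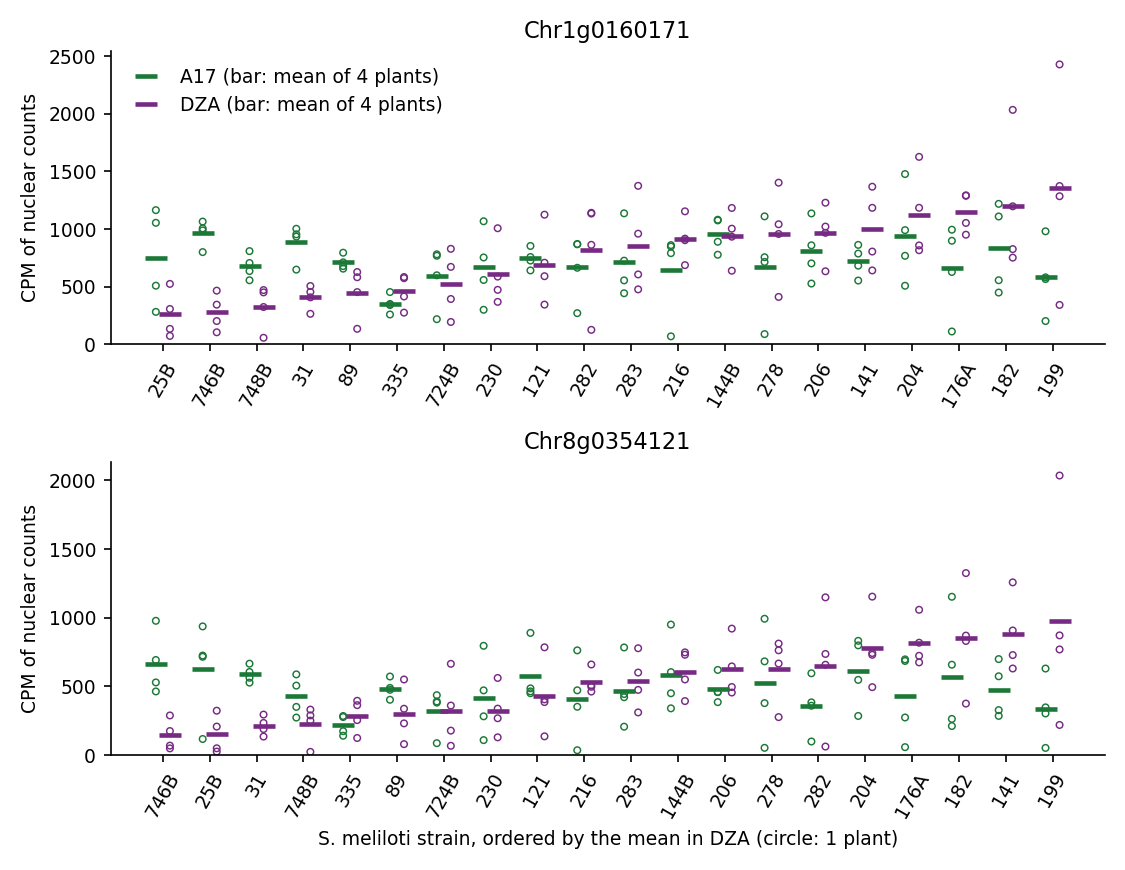
CPM of nuclear counts of Chr1g0160171 (top) and Chr8g0354121 (bottom) for each of the 20 strains, ordered by the DZA mean, with A17 in green and DZA in purple. Circles are single plants and bars the means of 4. The DZA means climb from 259 to 1357 CPM and from 146 to 974 CPM along the order, while the A17 means lie between 350 and 965 and between 220 and 666 CPM.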

How the data were processed

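The authors deposited expected counts per transcript, estimated with Salmon 1.4.0 against M. truncatula A17 r5.0 (mRNA, ncRNA and rRNA) together with S. meliloti 1021, then summarised in tximport with its bias correction and no offset. They are not normalized for library size. The study's methods give 1 NovaSeq lane and describe only DZA plants, so whether the A17 libraries shared that lane was not determined. Of the sample columns, 0 were left unmapped. Groups follow the labels' host and strain.

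CPM used the nuclear transcripts of a library as its total. For the models, counts were rounded, M. truncatula transcripts needed 10 or more counts in 4 or more libraries, and TMM and edgeR 4.0.16 (glmQLFit, legacy = FALSE) were used in R 4.3.3. An SE is the log2 change divided by the root of its F. Alternatives used limma 3.58.1 and DESeq2 1.42.0. Shares were tested with 100000 permutations, two-sided for the host difference and the correlations. For the F ratio of strain only larger ratios were counted. The models were also run on simulated data with 200 changed genes. Those data gave all genes the same spread and did not copy the run's changes between libraries. They therefore do not show how the models perform here.

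Members and gene lists were chosen with earlier results of these data known. Named members were the 12 highest, those at the edge of the list, the leading host and strain calls, the largest and smallest plant spreads, oxygen carriers and symbiosis genes. Of the annotation classes, 1 had at least 3 members, and the green tissue, dividing cell and ribosomal RNA markers could not be matched.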

Additional observations from a re-analysis of the deposited data

Results flagged for a closer look

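In A17 nodules with strain 204, plant 3168 had a member share of 82.6%, while the other plants had 45.3, 47.2 and 47.6%, a gap larger than Dixon's limit for 4 values. The S. meliloti share of that library was 59.9%, beside 11.8 to 19.5% in the other 3. This was 1 of 40 groups, and chance gives about 1 in 20.

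The difference between hosts varied with strain for 2 members in edgeR's interaction test, Chr8g0354121 (adjusted p = 1.42e-05) and Chr1g0160171 (adjusted p = 2.36e-04). Both were lower in DZA than in A17 with strain 746B and higher in DZA with strain 199, by their means.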

How the results depend on the processing

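The difference in member share between hosts kept its sign in all 15 alternatives, with -4.59 to -1.19 points over the 14 on that scale, the ends of which came from leaving out 1 plant per group, and -0.121 on the logit scale. It passed the threshold without replicate 1 (-4.59, permutation p = 0.0136). It also passed without the 8 doubted libraries (-4.09, permutation p = 0.0309), an alternative chosen after seeing the data. With members chosen over the DZA libraries it passed too (-3.96, permutation p = 0.0178), a choice that raises the DZA share by its construction. With members chosen over the A17 libraries it was -1.77 (permutation p = 0.245). The relation with the S. meliloti share was lost without the 10 highest transcripts (r = 0.286 in DZA and 0.341 in A17). It kept its call when 1 plant per group was left out (0.589 to 0.675 in DZA, 0.618 to 0.789 in A17).

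Counts for strain were the least stable. In DZA 4 to 9 members were called with 1 plant per group left out. In A17 the count was 0 or 1 with 1 plant left out, 2 with DESeq2's size factors and 2 without the 8 doubted libraries. The interaction gave 4 members under each of the latter settings and 1 to 2 with 1 plant left out. Calls between hosts stayed at 41 to 57 and slope calls at 74 to 84, with 43 instead of 28 risers under DESeq2's size factors. The causes were not tested.

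Among single members, Chr5g0422141 turned to 0.63 (limma-voom) and 0.051 (S. meliloti share as a covariate) between hosts. The slopes of Chr5g0422091 (-0.22) and Chr5g0422331 (-0.51) turned under limma-voom and that of Chr3g0094971 (0.053) under DESeq2's size factors. Leaving out transcripts annotated as rRNA was not run, since the sources used here do not mark them. No paired analysis was possible because replicate numbers only follow the order of the samples and pair no plants. Differences in DZA rest on reads mapped to A17, and with 4 plants per group spread between plants, not depth, limits precision.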
